A study of Drosophila melanogaster with 3 samples.

Results

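The distal intergenic loci are places outside every annotated gene, over 3 kb from the nearest transcript start, where tagged CG8119 protein was mapped in 3 of 3 biological replicates. Chromatin immunoprecipitation followed by sequencing (ChIP-seq) was done on whole Drosophila melanogaster prepupae aged 1 day, of a transgenic strain that makes CG8119 fused to enhanced green fluorescent protein (eGFP), with an antibody against the tag, after sonication to fragments of 200 to 800 bp. All 3 samples carried this transgene and formed 1 group, so there is no comparison between conditions, and animals without the tag were not analysed here. The promoter that drives the transgene is not named in the labels, sex was not collected, and a whole animal pools many tissues, so a locus used in a few cells and one weakly used in many cannot be told apart. Summits (the highest point of each peak) of the 3 thresholded peak lists were joined where neighbours lay within 150 bp, and loci with a summit of all 3 replicates, called shared loci, were kept. A locus was a member if its centre, the median summit, lay outside every gene body of Ensembl release 115 and more than 3000 bp from the transcript start of any gene. This rule, which uses position and recurrence and sets no limit on signal of its own, gave 312 members among 3746 shared loci (8.33%) and 9014 loci in all. With protein-coding genes alone as genes, 495 shared loci met it, and beyond 5000 bp from every start 188. The lists held 7279, 6769 and 4608 peaks in replicates 1, 2 and 3. Read depth is unknown, and the deposited signal of a peak has no stated scale, so signals were compared as percentiles within each replicate's own list.

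Transcription factors reach their target genes from the promoter beside the transcript start or from enhancers, which can lie many kilobases away in introns or between genes. In the compact fly genome most genes are closely packed, and long stretches without genes are often found around regulators of development, whose enhancers fill them. Insulators and Polycomb response elements also lie in such DNA, and binding there does not show which gene, if any, is controlled. CG8119 has no given name, and no label describes its role.

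Of the members, 296 had a centre poorer in guanine and cytosine (GC) than the DNA to either side, as set out further on, and the sequences at strong members are given to show the runs of adenine and thymine (A/T) there. The next 6 lines give the 201 bases centred on 6 of the 8 strongest members (the second and the fourth to the eighth), plus strand, build dm6 (from the RefSeq genome sequence), each named by the protein-coding genes to its left and right. Capitals mark uninterrupted A/T runs of 8 or more bases.
COX7AL2 and CG31668, chr2L:2202304-2202504: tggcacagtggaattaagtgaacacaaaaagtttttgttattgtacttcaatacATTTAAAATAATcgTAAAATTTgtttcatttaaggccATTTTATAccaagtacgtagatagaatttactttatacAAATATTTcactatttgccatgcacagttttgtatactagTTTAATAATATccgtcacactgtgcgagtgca
CG12689 and ct, chrX:7604590-7604790: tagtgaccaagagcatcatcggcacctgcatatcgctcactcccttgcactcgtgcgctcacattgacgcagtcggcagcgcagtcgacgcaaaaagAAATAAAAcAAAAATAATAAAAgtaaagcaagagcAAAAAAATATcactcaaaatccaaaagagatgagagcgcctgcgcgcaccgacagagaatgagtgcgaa
CG43245 and CG12523, chr3L:10776452-10776652: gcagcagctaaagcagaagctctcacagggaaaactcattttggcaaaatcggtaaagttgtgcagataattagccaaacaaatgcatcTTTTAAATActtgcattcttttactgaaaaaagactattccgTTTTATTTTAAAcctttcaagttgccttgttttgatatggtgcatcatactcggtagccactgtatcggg
CG43131 and RabGGTa, chr3R:5113172-5113372: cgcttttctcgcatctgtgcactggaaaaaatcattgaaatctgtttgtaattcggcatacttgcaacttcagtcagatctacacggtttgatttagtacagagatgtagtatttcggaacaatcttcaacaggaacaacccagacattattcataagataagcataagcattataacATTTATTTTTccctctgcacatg
spel1 and ppk, chr2L:14370041-14370241: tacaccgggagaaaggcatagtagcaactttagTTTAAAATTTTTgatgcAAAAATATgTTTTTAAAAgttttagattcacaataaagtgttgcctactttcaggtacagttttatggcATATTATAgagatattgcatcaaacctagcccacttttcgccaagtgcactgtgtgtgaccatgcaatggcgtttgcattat
lz and c12.1, chrX:9305809-9306009: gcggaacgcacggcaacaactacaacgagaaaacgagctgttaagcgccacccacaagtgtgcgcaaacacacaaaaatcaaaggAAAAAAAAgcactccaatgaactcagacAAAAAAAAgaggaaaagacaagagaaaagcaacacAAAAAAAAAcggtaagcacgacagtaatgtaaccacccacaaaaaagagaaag
The first of these had 5 such runs holding 23.4% of its bases, and the locus between CG43131 and RabGGTa had 1 run at the edge of the window, holding 4.98%. GC content was 29.4% at the COX7AL2 locus and 46.3% at the locus beside ct, so the strongest members were not all poor in GC. At these 6 the 101 bases around the centre had 23.8% to 38.6% GC. They were poorer than the mean of the sides at 4 loci, by the most at COX7AL2 (23.8%, against 60.4%), but not beside ct (37.6% in both) or lz (36.6%, against 32.2%). The member lowest in GC, chosen after its value was seen, lay between Aps and CG14147 with 16.4% GC and 56.7% of its bases in such runs.
Aps and CG14147, chr3L:10951187-10951387: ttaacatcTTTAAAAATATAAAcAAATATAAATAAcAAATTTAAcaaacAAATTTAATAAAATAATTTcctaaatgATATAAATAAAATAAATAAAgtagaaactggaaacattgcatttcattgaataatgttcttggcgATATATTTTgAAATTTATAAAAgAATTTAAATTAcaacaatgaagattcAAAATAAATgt

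Signal varied over a wide range among the members. The strongest lay between Su(z)2, a Polycomb group gene, and CG13323 on 2R (centre 13035333, 11923 bp from the nearest start), with signals of 1443, 1243 and 1132 in replicates 1, 2 and 3. Its mean percentile of 99.97 ± 0.0242 (SD, n = 3) placed it second among all 3746 shared loci. The member between COX7AL2, named for a cytochrome c oxidase subunit, and CG31668 on 2L had signals of 1405, 1243 and 1010. In both of these loci every replicate's signal was above 1000, and the next member reached 825 at most. That member, between RYBP, whose product binds Polycomb group proteins, and Ppa on 2R, had signals of 825, 567 and 824, and its percentile was lowest in replicate 2, at 98.6. The weakest member, between CG4066 and CG10013 on 3R, had signals of 60.7, 60.2 and 50.2, at a mean percentile of 12.1. The next weakest lay between H15 and mid on 2L, at 17.3, and between hng3 and CG13898 on 3L, at 17.8.

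Further members among the 20 strongest are given by their flanking genes. The locus 3738 bp from a start of ct, which encodes the homeodomain factor Cut, had signals of 490, 519 and 439. The locus beside lz, which encodes the Runx factor Lozenge of eye and blood cells, had 453, 345 and 339. The locus between betaTub60D and slbo, the gene of a C/EBP factor needed for border cell migration, had 457, 313 and 334. The locus between Eaf6 and Blimp-1, a repressor gene induced by ecdysone that times pupal development, had 503, 378 and 260. By percentile, the lowest replicate was 1 at ct (97.3), 2 at lz (94.1) and slbo (93.0) and 3 at Blimp-1 (90.3), so no one replicate was lowest throughout. The locus between BBS8 and ex, the gene of a growth regulator in the Hippo pathway, had 420, 319 and 279. The one beside foxo, the gene of a forkhead factor held back by insulin signalling, had 357, 359 and 265. A second Polycomb group gene, Psc, flanked a member with signals of 331, 354 and 315.

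**Figure D1:**
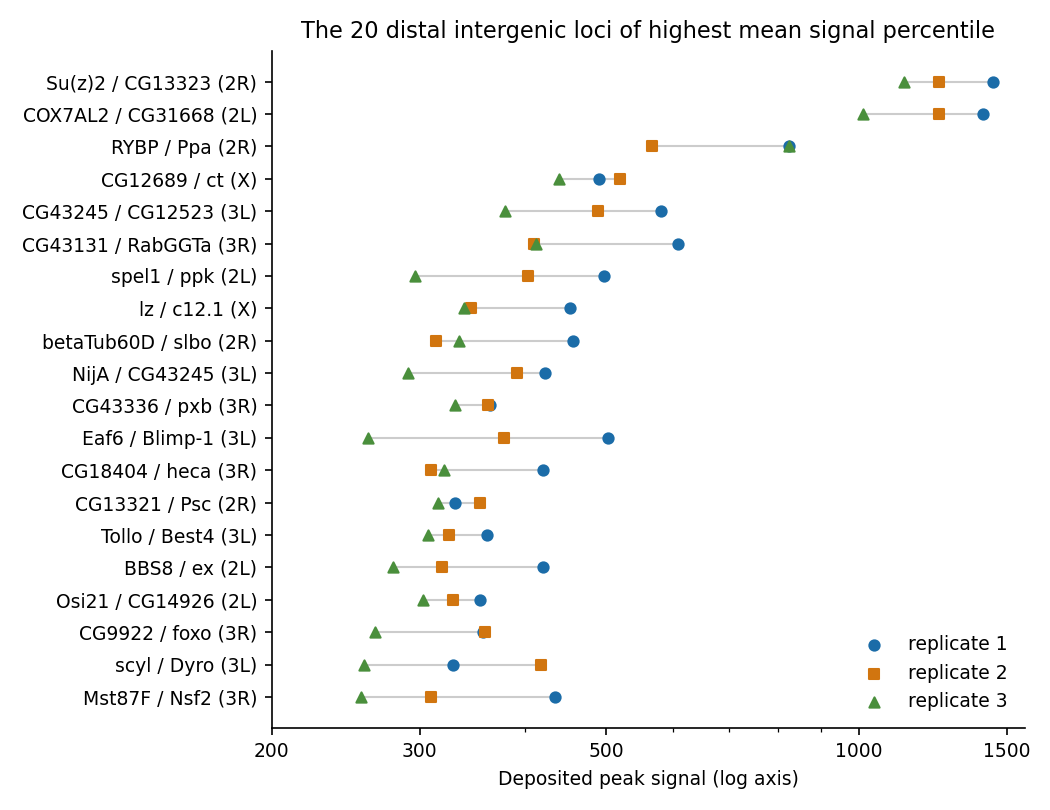
Deposited peak signal (log axis) of the 20 members with the highest mean signal percentile, named by their flanking protein-coding genes and chromosome arm; points are the 3 replicates and grey lines span them. The first pair lies at 1010 to 1443, and the other 18 members lie at 825 or below in every replicate.

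Of the remaining members among the 20 strongest, one lay between CG43245 and CG12523, and another between CG43245 and NijA, a ninjurin membrane protein gene. The others lay beside CG43131 and RabGGTa, a Rab prenylation subunit, and beside spel1, a mismatch repair gene, and ppk, an ion channel gene of sensory neurons. Further down came CG43336 and pxb, CG18404 and heca, Tollo (a Toll family receptor gene) and Best4, Osi21 and CG14926, scyl (a stress-induced inhibitor of TOR signalling) and Dyro, and Mst87F (a sperm gene) and Nsf2. Mean percentiles of the 20 ran from 99.97 at the locus beside Su(z)2 to 93.0 at the locus between Mst87F and Nsf2. Of the 312 members, 27 had a mean percentile of 90 or more and 206 of 50 or more. Among all shared loci, members made up 2 of the 25 strongest, 3 of the 100 strongest and 57 of the 1000 strongest, beside 8.33% of the whole.

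Summits of the 3 replicates lay within 36 bp of each other at the median member, and within 50 bp at 220 members (70.5%). Joining summits within 150 bp limits this spread in advance, and no share over other shared loci is given, so it is a description only. Spearman's rho of member signals, a description across loci of the same lists, was 0.820 between replicates 1 and 2, 0.830 between 1 and 3 and 0.849 between 2 and 3. Replicates differed most at a locus between Tollo and Best4 (centre 15266808 on 3L), with signals of 143, 165 and 61.2, then at one between Or67d and CG12362 with 112, 95.3 and 53.0, and at one between Ids and sty with 108, 61.3 and 51.0. Replicate 3 had the lowest percentile at each of these 3, at 13.9, 4.64 and 3.47. In the conservative list that the authors deposited for the series, 311 of the 312 members had a peak, against 99.2% of the 3434 other shared loci. That list is a pooled one of this same group, so its overlap with the members is not separate evidence. The exception, between CG44362 and CG7560, ranked 286th among the members and is named after its value was seen.

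Recurrence was compared between distal and other positions. Of 710 loci at distal positions in any replicate, 312 (43.9%) were found in 3 replicates, 158 in 2 and 240 in 1, against 41.6% in 3 replicates over all loci. Within each replicate, 58.4%, 57.0% and 78.4% of distal summits lay in shared loci, against 52.0%, 56.2% and 82.3% of all other summits. The difference was 1.09 ± 5.13 percentage points (SD, n = 3, exact sign-flip permutation test over the replicates, two-sided, p = 0.75), smaller than its spread, and replicate 3 had the opposite sign to the other two. It was -2.29 points in the stronger 50% of each list, 0.196 points without replicate 1, 3.29 without replicate 2 and 0.715 without replicate 3. Where 1 replicate was left out, a shared locus needed a summit of both others. With 3 replicates this exact test cannot give a p below 0.25, so no difference tested here could reach 0.05.

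Distal intergenic DNA held a smaller share of summits than of bases. Distal positions made up 20.1% of the assembled arms and held 555, 563 and 403 summits, or 7.62%, 8.32% and 8.75% of each list (8.23% ± 0.566, SD, n = 3). With protein-coding genes alone as genes the mean share was 12.7%, and beyond 5000 bp it was 5.06%. How much of this DNA, which takes in repeats near the centromeres and on Y, can be mapped by reads was not tested. Members also grew rarer with distance. There were 22.7 members per Mb of distal DNA at 3 to 5 kb from a start, 15.7 at 5 to 10 kb, 10.6 at 10 to 20 kb and 1.77 beyond 20 kb.

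Signal percentiles did not follow the same order. The median percentile of the 124 members at 3 to 5 kb was 61.4 ± 7.05 over the replicates, that of the 116 at 5 to 10 kb 58.9 ± 5.46, that of the 55 at 10 to 20 kb 64.3 ± 7.91 and that of the 17 farther out 70.3 ± 8.01 (SD, n = 3 each). Within each replicate the median was lower at 5 to 10 kb than at 3 to 5 kb, and then higher in each further bin, the last of which holds 17 members. These differences were not tested. Across the 312 members, Spearman's rho between distance and mean percentile was 0.0291, a description only. Distances ran from 3014 bp to 36644 bp with a median of 5751 bp, and 72 members lay over 10 kb out. The nearest start belonged to a protein-coding gene at 200 members, to a non-coding RNA gene at 99, to a tRNA gene at 12 and to a pseudogene at 1.

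The farthest member lay 36644 bp from a start, in the gap between NijA and CG43245 on 3L, with signals of 115, 68.2 and 93.1. The next, 33836 bp from vvl, which encodes the POU factor Ventral veins lacking, had 130, 171 and 180, above the farthest one in each replicate. A further 2 of the 5 farthest lay in the NijA gap, at mean signals of 202 and 306, and the fifth was the Tollo locus whose replicates differed most. Just inside the limit of 3000 bp were loci at 3014, 3025 and 3028 bp with mean percentiles of 37.4, 35.9 and 77.6, against 2980, 2979 and 2966 bp and mean percentiles of 65.9, 63.2 and 71.1 for the intergenic loci just outside it. The 3 inside lay beside hng3, Cpr51A and ptc, and the 3 outside beside CG7320, CG30222 and CG17570.

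Members had lower signal percentiles than shared loci at promoters. The median signal percentile was 66.4, 64.8 and 54.5 in replicates 1, 2 and 3 for members, against 78.2, 76.5 and 65.6 for the 1199 loci within 500 bp of a start. Members were lower by 11 to 12 points in every replicate, with a difference of -11.5 ± 0.412 percentile points (SD, n = 3, exact sign-flip permutation test, two-sided, p = 0.25, the smallest it can give). Without replicate 3 the difference was -6.69 points, without replicate 1 -13.8 and without replicate 2 -12.3, and in the stronger 50% of each list it was -16.8. Where 1 replicate was left out, loci were joined anew and needed a summit of both others. The loci compared therefore differed too, with 411 members without replicate 3. Against the 302 intergenic loci between 500 and 3000 bp, with 72.0, 70.2 and 56.3, members were also lower in each replicate, by -4.25 ± 2.16 points (SD, n = 3, exact sign-flip permutation test, p = 0.25), or by -2.50 for members beyond 5000 bp and -2.66 where protein-coding genes alone set the classes. Against the 315 deep intronic loci, over 10 kb from any start, with 68.5, 64.7 and 52.9, the difference was -0.127 ± 1.91 points (SD, n = 3, exact sign-flip permutation test, p = 1), and its sign differed between replicates. It was -1.17 points without replicate 1, -2.78 without replicate 2 and -0.00452 without replicate 3, and 1.34 points where protein-coding genes alone set the classes. In each of these comparisons the replicates read the same loci. The SD and test therefore cover repeat measurement of those loci and not the choice of loci.

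**Figure D2:**
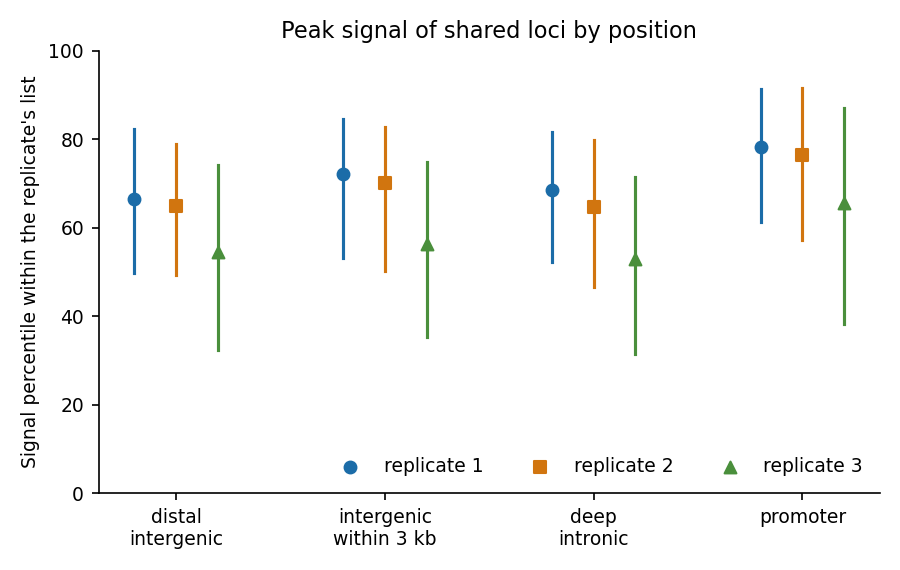
Signal percentile within each replicate's list for the 312 distal intergenic members and 3 other position classes of shared loci; points are medians and lines the lower to upper quartile, by replicate. Member medians of 54.5 to 66.4 lie below the promoter medians in the same replicate and beside deep intronic medians of 52.9 to 68.5.

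The members were unevenly spread over the chromosome arms. Arm 3L held 127 members, 3R 57, 2R 54, 2L 52 and X 22, while 4 and Y held 0. Thus 40.7% of members lay on 3L, against 21.4% of the other shared loci, and 7.05% lay on X, against 21.8%. By replicate, 40.0%, 37.5% and 39.0% of distal summits lay on 3L, against 22.2%, 21.4% and 21.7% of other summits, a difference of 17.0 ± 0.883 percentage points (SD, n = 3, exact sign-flip permutation test, p = 0.25). On X the shares were 7.57%, 6.57% and 7.44% of distal summits, against 20.5%, 20.7% and 21.7% of other summits, a difference of -13.8 ± 0.731 points (SD, n = 3, exact sign-flip permutation test, p = 0.25). The replicates hold many of the same loci, with 58.4%, 57.0% and 78.4% of distal summits in shared loci. The SD and the test over replicates therefore do not measure how uncertain the share of an arm is. These 2 share comparisons were chosen after the counts by arm were seen.

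Arms differ in how much distal intergenic DNA they hold, so densities were also taken. Per Mb of distal DNA there were 18.9 members on 3L, 12.2 on 2L, 11.2 on 3R, 9.84 on 2R and 5.96 on X. The density on X was 0.444 of that on the 4 large autosomal arms, and all distal summits gave ratios of 0.479, 0.412 and 0.471 by replicate (0.454 ± 0.0368, SD, n = 3). Counting only distal DNA at most 20 kb from a start, densities were 27.4 on 3L, 16.6 on 2R, 14.4 on 2L, 14.4 on 3R and 8.31 on X, so 3L stayed highest and X lowest while the arms between changed order. The sex of the pooled animals, and with it the number of X chromosomes per cell, is not known, and its part in this ratio was not tested. On X the strongest members were those beside ct and lz, and a run of 3 members lay between CG7378 and CG43759. The weakest on X, between CG11369 and CG12689, had a mean percentile of 23.6.

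**Figure D3:**
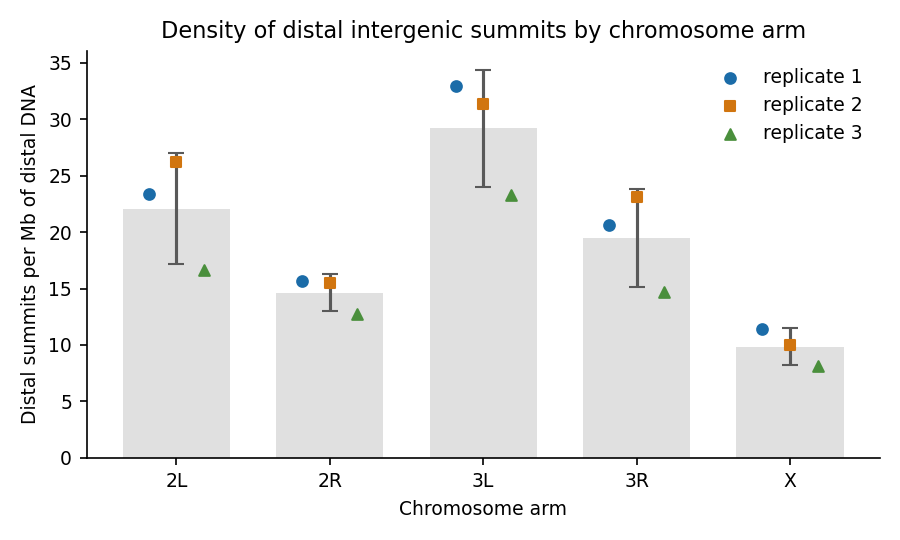
Distal intergenic summits per Mb of distal intergenic DNA on the 5 large chromosome arms; points are replicates, bars their mean and whiskers the SD (n = 3). 3L is highest and X lowest within every replicate.

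The members lay in 166 gaps between neighbouring protein-coding genes, of which 95 held 1 member, and 29 held 3 or more, or 133 members (42.6%) together. Gaps differ in length and no such share was taken over other shared loci, so these counts are a description only. The fullest by count were 2 gaps on 3L with 13 members each. The gap between NijA and CG43245 was 75 kb long with no annotated gene inside, and its members spanned 62.6 kb with mean percentiles of 28.8 to 94.7. The gap between hng3 and CG13898 was 47.9 kb long and held a pair of tRNA genes, and its members spanned 39.9 kb with mean percentiles of 17.8 to 91.9. Strong and weak members were interspersed along both gaps. Next came Ids and sty on 3L and CG11041 and CG16894 on 2R, with 7 each, then CG18404 and heca on 3R and Aps and CG14147 on 3L, with 6 each. The fullest gaps were not the densest. Per 100 kb of distal DNA, the NijA gap held 18.8 members and the hng3 gap 36.4. The sty gap held 50.4, the CG16894 gap 12.5, the heca gap 41.7 and the Aps gap 10.1. sty encodes Sprouty, an inhibitor of receptor tyrosine kinase signalling. Outside its 2 fullest gaps 3L still held 101 members, at 15.2 per Mb.

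**Figure D4:**
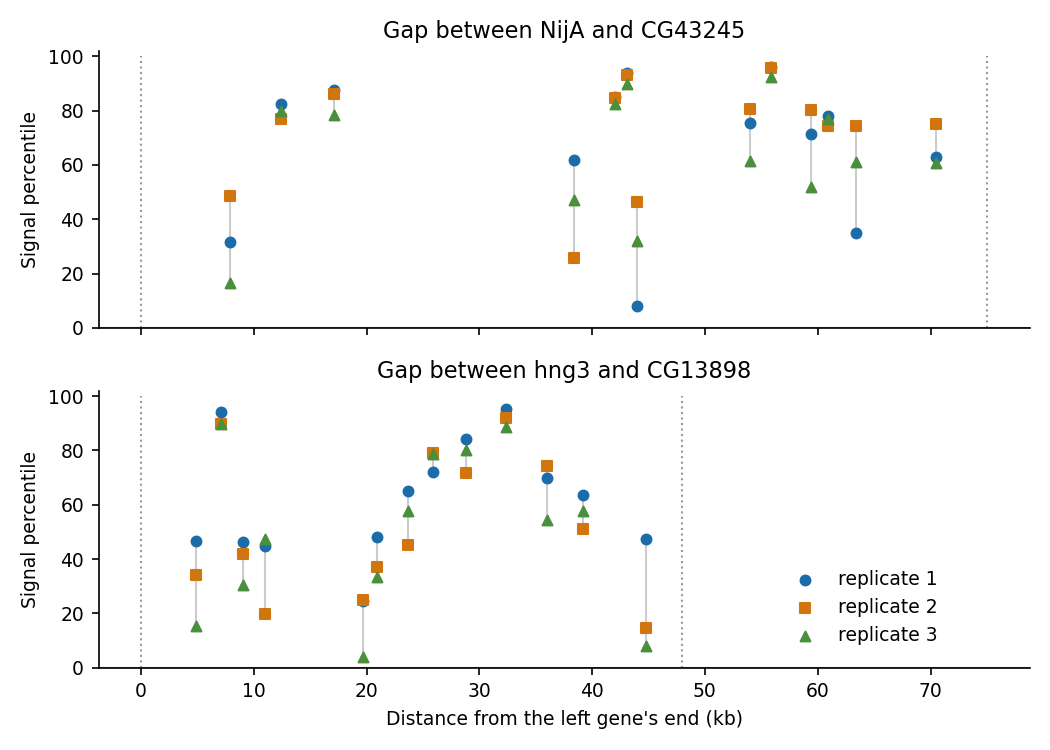
Signal percentile of the 13 members in each of the 2 fullest gaps against distance (kb) from the end of the left gene; points are replicates, grey lines join them and dotted lines mark the flanking genes. Members lie along 62.6 kb of the upper gap and 39.9 kb of the lower one, strong ones between weak ones.

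Of the 312 members, 90 (28.8%) had a gene of any of 9 lists as a direct protein-coding neighbour, against 21.3% of the bases of distal intergenic DNA. At most 20 kb from a start the share was 27.8% of members, against 26.8% of bases. Among secreted signals and their receptors, 15 members (4.81%) lay next to 12 genes, against 1.22% of distal bases, or 5.08% against 1.85% within 20 kb of a start. The strongest was beside ptc, the Hedgehog receptor gene, with signals of 350, 279 and 236, and a second lay nearer to ptc with 183, 158 and 159. Others were beside hh, the Hedgehog ligand gene, with 133, 135 and 169, and fz, a Wnt receptor gene, with 162, 167 and 113. Further genes of this list with a member were dpp, Wnt4 and wg, pyr and ths, Ser, Wnt6 and Wnt10, and upd3, which encode ligands of the BMP, Wnt, FGF, Notch and JAK-STAT pathways.

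For homeodomain and segmentation factors, 27 members (8.65%) lay next to 19 genes, against 5.63% of distal bases, and against 7.92% of the distal bases at most 20 kb from a start beside 8.14% of the members there. After ct the strongest were beside Awh, a LIM homeodomain gene, with signals of 259, 220 and 186, beside drm, an odd-skipped family gene, with 234, 185 and 147, and between H15 and mid, both T-box genes, with 184, 153 and 173. The ecdysone and nuclear receptor list had 10 members (3.21%) next to 5 genes (Blimp-1, Eip93F, knrl, Ldh and kni), against 2.02% of distal bases. Of these genes, knrl, with 3 members, and kni, with 1, are also on the homeodomain and segmentation list. After Blimp-1 the strongest of the ecdysone list were 3 loci beside Eip93F, which encodes the factor E93 of metamorphosis. They had mean signals of 198, 194 and 158 at 7590, 17595 and 11843 bp. Chromatin, insulator and BTB genes had 7 members (2.24%), against 1.37% of distal bases, and the 3 genes concerned were Su(z)2, Psc and chinmo, a BTB factor gene of neuronal timing whose locus had 134, 159 and 124. The second member beside Su(z)2 had 240, 161 and 165, well below the strongest one in each replicate.

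The other 5 lists lay on both sides of their share of distal DNA. Neuronal fate factors had 6 members (1.92%), against 1.16% of distal bases, led by lz, chinmo, shep (mean signal 141) and SoxN (139). The 3 members in the gap beside chinmo counted both here and among the chromatin, insulator and BTB genes. Chemosensory receptors had 15 (4.81%), against 2.61%, and the strongest lay beside Ir67b with 254, 272 and 184 and beside Gr93a with 221, 264 and 161. Adhesion and axon guidance genes had 13 (4.17%), against 6.11%, among them Tollo, 18w, a related Toll family gene, with 220, 167 and 176, and Nrt, which encodes Neurotactin, with 178, 167 and 138. Cuticle and chorion genes had 3 (0.962%), against 0.57%, beside Osi21, between Osi6 and Osi7, and beside Cpr51A. Ion channel and synaptic genes had 2 (0.641%), against 1.59%, beside KCNQ, a potassium channel gene, with 154, 120 and 103, and brp, the Bruchpilot gene of active zones, with 106, 68.4 and 73.0. At most 20 kb from a start, neuronal fate factors had 2.03% of members against 1.73% of bases, and chemosensory receptors 5.08% against 3.85%. Cuticle and chorion genes had 1.02% against 0.874% there, so these 3 lists lay nearer to their share of bases. Adhesion genes had 3.05% against 7.35% there, and ion channel genes 0.678% against 2.12%. Members in one gap share their neighbours, so the counts of members per list are not counts of independent events, and no test was made on them. The shares also move with the choice of loci. In the stronger 50% of each list, homeodomain and segmentation factors had 5.16% of members, below their share of distal bases, secreted signals and receptors 2.58% and any list 24.5%. By the gene with the nearest start alone, homeodomain factors had 5.77%, chromatin genes 0.641% and ion channel genes 0%. The share of bases was not taken by that rule, so these values cannot be set against the shares of bases above.

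Low GC content was common to most members. Mean GC content within 100 bp of the centre was 32.2% ± 6.20 (SD over 312 members), against 40.9% over 134852 adjoining windows of the same width that tile distal intergenic DNA. It was below the median of windows in the members' own gaps, 42.3%, at 295 members. Near intergenic loci had a mean of 33.2%, deep intronic loci 32.9% and promoter loci 34.2%, so low GC was found in each class of shared locus. At the summits of each replicate, members had 32.5%, 32.4% and 32.7% GC, against 33.6%, 33.3% and 33.7% for near intergenic loci, a difference of -0.994 ± 0.086 percentage points (SD, n = 3), or -0.601 without replicate 1. The replicates read nearly the same DNA at the same loci, so here and for words the SD covers the placement of summits only, and a sign-flip test over replicates would say nothing further. Uninterrupted A/T runs of 8 or more bases held 18.9% of the bases at members and 10.1% in the windows of the members' own gaps.

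The low GC lay in a narrow core with GC-richer DNA on both sides. Mean GC over members was 28.0% at the centre, 49.2% at 200 bp to the left, 48.8% at 250 bp to the right and 43.7% at 500 bp to the right, in windows of 51 bases. In each replicate, the 101 bases around the summit had 29.0%, 28.7% and 29.3% GC, against 48.6%, 49.0% and 48.7% in stretches of the same width 250 bp to each side. This core was lower in GC than both sides at 296 members (94.9%), against 30.1% of windows of distal intergenic DNA. It was so at 84.4% of near intergenic and 89.2% of deep intronic loci too, so the trait is not particular to members. The sides exceeded the core by 19.8 ± 0.465 points at members, against 16.6 ± 0.363 at near intergenic loci and 17.6 ± 0.0951 at deep intronic loci (SD, n = 3 each). Members exceeded near intergenic loci by 3.12 ± 0.166 points and deep intronic loci by 2.20 ± 0.476 points (SD, n = 3, again of summit placement only). Across members the depth of the core had a Spearman's rho of 0.151 with mean percentile, a description only. The core and its sides were compared after the profile had been seen, and base composition can also change how well fragments are amplified and mapped, which was not tested.

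**Figure D5:**
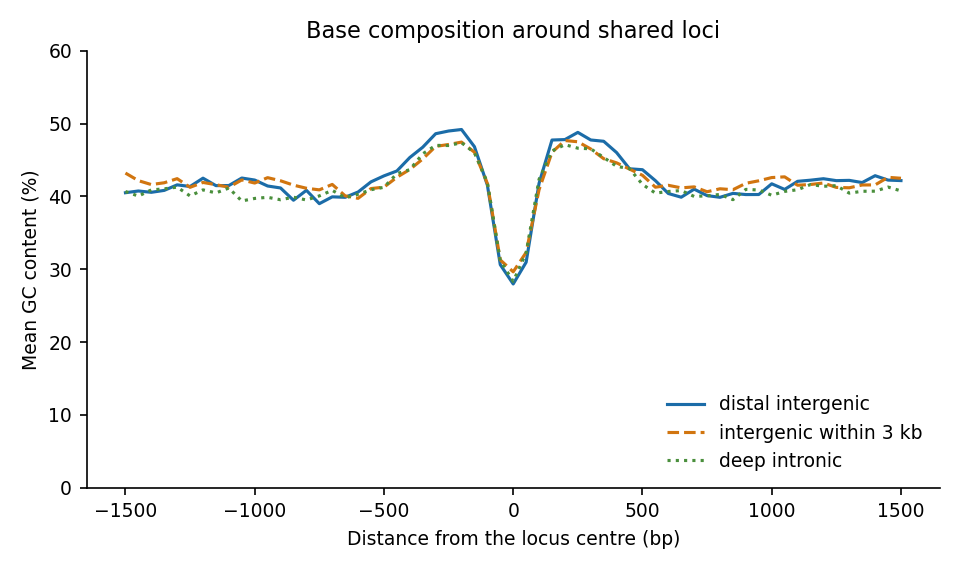
Mean GC content (%) in windows of 51 bases against distance (bp) from the locus centre for distal intergenic, near intergenic and deep intronic shared loci. Each class dips at the centre, to 28.0% for members, whose sides reach 49.2%.

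Short sequence words, read on either strand, were looked for in the 201 bases at each centre. The word of 7 adenines, a simple A tract, was at 88 members (28.2%), against 16.4% of windows of distal intergenic DNA, and the repeat ATATATAT at 22 members (7.05%), against 2.83%. The AP-1 word TGANTCA, read by Jun and Fos dimers, was at 23 members (7.37%), against 3.43%. The BEAF-32 word CGATA, of an insulator protein, was at 45 members (14.4%), against 20.5%, and the Scalloped word GGAATG, of the Hippo pathway's DNA-binding factor, at 15 members (4.81%), against 9.55%. These are the 5 of 35 words that lay farthest from the windows. Members had a mean of 32.2% GC, against 40.9% in the windows, and the word shares were not corrected for base composition. Composition alone could therefore move these shares. The A tract was at 34.4% of near intergenic, 42.2% of deep intronic and 34.7% of promoter loci, above its share of members. In the same order, the repeat ATATATAT was at 8.94%, 6.67% and 7.26%, so it is not particular to members. The BEAF-32 word was at 16.9%, 19.0% and 22.9%. The Scalloped word was below the windows in these classes too, at 7.62% of near intergenic loci at most. The AP-1 word was less frequent in each of them than at members.

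Against near intergenic loci, words were compared at the replicates' own summits. The AP-1 word was at 7.48% ± 0.185 of member summits, against 4.42% ± 0.382 of near intergenic summits, a difference of 3.06 points, and the A tract at 27.0% ± 0.667, against 35.0% ± 0.506, a difference of -7.96 points (SD, n = 3 each). Where protein-coding genes alone set the classes, the AP-1 difference was -0.0751 points. The next 3 lines give 61 bases around the word, plus strand, build dm6, at 3 strong members that hold it (the 18th, 21st and 22nd by strength), with the word in capitals.
CG9922 and foxo, chr3R:14053557-14053617: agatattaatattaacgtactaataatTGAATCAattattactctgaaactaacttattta
NijA and CG43245, chr3L:10739863-10739923: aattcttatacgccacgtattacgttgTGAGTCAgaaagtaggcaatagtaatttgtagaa
hng3 and CG13898, chr3L:787831-787891: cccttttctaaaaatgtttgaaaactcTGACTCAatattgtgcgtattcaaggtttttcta
The word lay 9 bp to the right of the centre at the locus beside foxo, 78 bp to the left in the NijA gap and 42 bp to the right in the hng3 gap. A match is a match of letters and not evidence that the factor was there.

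The 7-base words that led at shared loci outside the distal class were also read at the members. Ranked by their excess over windows 500 bp to either side, the 10 leading words held A and T alone. The first of them was AAAAAAT, found at 104 members (33.3%), against 18.7% of windows of distal intergenic DNA. The second, AAAATAT, was at 103 members (33.0%), against 16.4%. Further down, TTTAAAA was at 88 members (28.2%), against 12.1%. At members their shares ran from 24.4% for TAAAAAA to 34.3% for AAAAATA, against 14.6% and 18.6% of those windows for the same words. Each of the 10 was more frequent at members than in those windows. Members were not used to rank the words, but they come from the same 3 libraries. Every class of shared locus was low in GC, so an excess of A and T words over the windows is not a separate result. At the other shared loci AAAAAAT was at 34.9%, TAAAAAA at 28.8%, AAAAATA at 34.3%, AAAATAT at 30.5% and TTTAAAA at 25.2%. Members were thus lower for the first pair, alike for AAAAATA and higher for the last pair.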

How the data were processed

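ChIP-seq peak lists of 3 biological replicates of 1 group, numbered in the labels, were analysed on build dm6, per the labels. The deposited signal of each peak is the authors' value on an unstated scale, and the deposited score is a scaled irreproducible discovery rate (IDR), at least 830 in the thresholded lists, the value of an IDR of 0.01. A −log10 of the IDR, deposited in the ranked lists, served in 1 alternative. No source used here names the aligner, the peak caller, the read depth or the reads paired for the IDR. Further lists of the whole series were not used here, apart from the conservative one.

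Summits were joined within 150 bp by single linkage, classed with Ensembl release 115 (transposable elements left out) and given percentiles by signal within each list, in Python 3.11.15 with numpy 2.4.6 and scipy 1.17.1. Class differences in signal, recurrence and arm shares were taken within replicates and tested with an exact two-sided sign-flip permutation over the 3 replicates. The labels call the replicates biological but do not say how animals were pooled. Words were sought in 201 bases of the RefSeq genome sequence of the same assembly. The sign-flip test planned for GC content and words is not reported, since replicates share the same loci and DNA there. Backgrounds are all bases, or all adjoining windows, of distal intergenic DNA. The functions were tested on simulated peaks. Loci named in the text are the 20 strongest, the 3 weakest, the 5 farthest, those at the limit, the 3 that differed most between replicates, the 6 fullest gaps and up to 4 per list. Others (the member lowest in GC, the one missing from the conservative list, the CG7378 and CG11369 loci on X and further genes of the signal list) were chosen after their values were seen. Of the listed gene symbols, 833 matched the annotation. Values at most 20 kb from a start and 3L without its 2 fullest gaps were added after seeing the data. The members, lists and words were chosen with earlier results of these data known. Coordinates are 1-based.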

Additional observations from a re-analysis of the deposited data

How the results depend on the processing

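The number of members was 188 beyond 5000 bp, 155 in the stronger 50% of each list and 495 where protein-coding genes alone set positions. It was 343 to 411 when 1 replicate was left out and a shared locus needed a summit of both others. The percent of summits at distal positions was 5.06 beyond 5000 bp, 10.3 beyond 2000 bp, 7.56 in the stronger 50% and 12.7 with protein-coding genes alone. The X to autosome ratio was 0.400 with summits joined within 50 bp, 0.363 beyond 5000 bp, 0.495 beyond 2000 bp, 0.361 in the stronger 50%, 0.484 with protein-coding genes alone, 0.485 without the 2 fullest gaps of 3L (an alternative chosen after seeing the data) and 0.401 to 0.519 with 1 replicate left out. Counting the gene with the nearest start alone, 19.2% of members had a listed neighbour, and no share of bases was taken by that rule.

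The difference in recurrence turned to -2.03 points with joins within 50 bp, -0.596 beyond 5000 bp and -2.29 in the stronger 50%. The signal difference from deep intronic loci turned to 0.0686, 0.731, 0.636 and 1.34 points beyond 5000 bp, beyond 2000 bp, in the stronger 50% and with protein-coding genes alone. Word differences turned for AP-1 (-0.0751 points, protein-coding genes alone), the repeat ATATATAT (1.54 with joins within 50 bp and 1.80 in the stronger 50%) and BEAF-32 (0.083 in the stronger 50%). The cause was not tested. The differences from near intergenic and promoter loci in signal, those in GC content and core, and the shares on X and 3L kept their sign under each alternative run for them, though some moved by over 1.5 times, as given beside them. No paired analysis was possible because the study has 1 group, so no groups share replicate numbers (classes of loci were compared within replicates). Unknown depth limits what the absence of a peak means, and replicate 3 had the shortest list.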
